A study of Mus musculus with 16 samples.

Results

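Quadriceps RNA of male CD2F1 mice carrying a subcutaneous C26 tumour was compared with quadriceps RNA of control mice of the same strain, sex and age. The comparison was made up of the 8 libraries whose tumour label reads Subcutaneous C26 (4 libraries) or Control (4 libraries), out of 16 libraries in the series, and was read across all 13320 genes with a symbol. C26 is a mouse colon carcinoma line that is widely used as a model of cancer cachexia, the loss of muscle and fat that accompanies some tumours. Mice of both groups entered the study at 8 weeks of age, and in the tumour group C26 cells were injected under the skin. What was given to the control mice is not stated in the labels, nor is the number of weeks between injection and death. The other 8 libraries were from sham-operated mice given saline and from mice given C26 cells into the spleen, a route chosen to seed the liver. Whether each library stands for its own animal is not stated in the labels, and the p-values therefore cover the sample-to-sample spread, which could be technical. Total gene counts were 27.6 to 33.5 M per library. Values per library are in CPM, the counts of a gene per M counts of the library, with the library size scaled by the trimmed mean of M-values (TMM). They are listed in the order of replicates 1 to 4, which number the libraries and do not pair them.

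Muscle mass is set by the balance between protein synthesis and breakdown. In wasting muscle, FoxO transcription factors switch on ubiquitin ligases that mark proteins for the proteasome, and they also raise autophagy, which delivers organelles and protein to the lysosome. Cytokines of the interleukin-6 family, acting through STAT3, and glucocorticoids are known triggers of this programme in mice with C26 tumours. Insulin and insulin-like growth factor 1 act against it through AKT, which keeps FoxO factors out of the nucleus, and through mTOR, which drives translation.

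Genes that passed the test were about as many as genes that did not. Of the 13320 genes, 6665 (50%) passed, which means an adjusted p under 0.05 in the edgeR quasi-likelihood test. They comprised 3593 genes (27%) that were higher and 3072 (23.1%) that were lower in the tumour group. Of these, 1285 higher genes (9.65% of all genes) and 1723 lower genes (12.9%) differed at least 2-fold. The 4 tumour libraries all lay above the 4 control libraries for 3361 genes (25.2%) and all below for 2754 (20.7%). The median log2 difference of all genes was -0.02, and 53.9% of the calls were higher. With upper-quartile scaling in place of TMM the median moved to -0.26 and the higher share to 34.9%, so directions of gene groups were read against both scalings.

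The libraries of a group were not equally far apart. On the first principal component (74.3% of the variance) the controls lay between -62.5 and -57.8 and tumour replicates 1, 2 and 4 at 69.2, 85.4 and 74.0, whereas tumour replicate 3 lay at 8.80. Among the 3593 higher calls, the value of tumour replicate 3 fell within the range of the 4 controls for 448 genes, against 39, 29 and 31 genes for replicates 1, 2 and 4. Among the 3072 lower calls the numbers were 553 for replicate 3 and 114, 21 and 48 for the others. Without tumour replicate 3, 3813 genes were higher and 3734 lower. Control libraries 2 and 4 carried more liver-typical transcripts than control libraries 1 and 3, and tumour replicate 4 and control 1 carried transcripts of red cell precursors and dividing cells; their values stand beside the genes they touch.

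Metallothionein genes, an orphan receptor gene and inflammatory genes had the largest rises. Mt1 and Mt2 encode small cysteine-rich proteins that bind zinc and copper, and their values share an uncertainty because the 2 sequences are similar. Mt2 (chr8:94172664-94173568, + strand on mm10, protein coding) stood at 3.82, 13.5, 4.39 and 2.202 CPM in control and 1085, 988, 190.3 and 1007 CPM in subcutaneous C26 (log2 difference 7.09 ± 0.93, edgeR adjusted p = 0.0001, where ± is the SE). Mt1 (chr8:94179082-94180327, + strand) stood at 11.5, 22.8, 12.5 and 9.08 CPM in control and 1492, 1464, 234 and 1389.6 CPM in subcutaneous C26 (log2 difference 6.36 ± 0.85, edgeR adjusted p = 0.000111). The groups did not overlap for either gene, and in both the lowest tumour library was replicate 3. The RefSeq windows of both genes (GRCm38.p6, 250 bases before to 50 bases after the start) are shown because the 2 genes rose together from neighbouring starts on the plus strand, at chr8:94178839-94179138 for Mt1 and chr8:94172368-94172667 for Mt2. Capitals mark matches on either strand to TGCACNC or TGCGCNC, the core letters of the metal response element that the zinc-sensing factor MTF-1 binds, and no match overlaps another.
Mt1 promoter: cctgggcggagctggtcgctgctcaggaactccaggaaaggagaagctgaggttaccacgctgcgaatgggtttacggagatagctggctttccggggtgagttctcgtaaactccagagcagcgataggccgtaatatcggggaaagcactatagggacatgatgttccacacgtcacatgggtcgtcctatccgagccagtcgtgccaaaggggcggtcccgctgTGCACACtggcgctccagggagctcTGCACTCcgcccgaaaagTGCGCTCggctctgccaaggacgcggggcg
Mt2 promoter: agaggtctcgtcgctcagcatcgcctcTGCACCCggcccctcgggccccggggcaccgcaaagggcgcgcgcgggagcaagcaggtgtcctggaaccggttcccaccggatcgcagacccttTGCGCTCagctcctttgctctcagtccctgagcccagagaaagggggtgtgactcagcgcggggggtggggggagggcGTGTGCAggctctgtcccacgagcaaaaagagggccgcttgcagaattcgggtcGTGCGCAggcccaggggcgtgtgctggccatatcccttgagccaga
Mt1 held 3 matches and Mt2 held 4. Of 32851 RefSeq windows of the same length, 25.7% held at least 1 match, 1.97% held 3 or more and 0.517% held 4 or more. Slc39a14, which encodes the zinc and iron importer ZIP14, was at 17.8, 21.3, 16.5 and 17.7 CPM in control and 744, 607, 61.0 and 680.4 CPM in subcutaneous C26 (log2 difference 4.84 ± 0.83, edgeR adjusted p = 0.000452). Its groups did not overlap, though tumour replicate 3 stood far below the other tumour libraries. Of the 19 measured of 21 listed metallothionein and zinc transporter genes, 6 rose, 0 fell and 13 did not pass, while 27% of all genes were higher and 23.1% lower. Metallothionein and zinc transporter genes (31.6%) rose at a share within 10 percentage points of that of all genes (27%). Metallothionein and zinc transporter genes that fell (0) numbered 4 with upper-quartile scaling and 2 without tumour replicate 1 or in the fit of the 8 libraries alone.

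The chemokine gene Cxcl13, whose product attracts B cells, was at 0.973, 0.622, 0.726 and 0.745 CPM in control and 104, 62.3, 5.84 and 69.8 CPM in subcutaneous C26 (log2 difference 6.29 ± 0.77, edgeR adjusted p = 6.53e-05). Lcn2, which encodes the iron-siderophore binding protein lipocalin 2, was at 3.28, 4.29, 0.872 and 0.983 CPM in control and 417, 374, 20.9 and 190.2 CPM in subcutaneous C26 (log2 difference 6.71 ± 1.27, edgeR adjusted p = 0.000888). All tumour libraries exceeded all controls for both genes, by the narrowest margin in replicate 3. Mrgprg, a gene of the Mas-related receptor family, had 3 counts over the 4 control libraries and 762 over the 4 tumour libraries, a ratio of 289 (95% counting interval 98.6 to 1406, which covers counting error only). The serum amyloid gene Saa3, Scgb3a1 and Plac8 completed the 8 highest genes by the naming rule, with log2 differences of 5.84 ± 1.39, 5.12 ± 0.60 and 4.99 ± 0.60. Their control means were all under 1 CPM, so the size of these differences depends on few counts. When genes were required to vary less than 2-fold among the 4 controls, a restriction chosen after values were seen that kept 11567 genes, the highest were Cxcl13, Slc39a14, Fam134b, Ctxn3, Trim63, Kcnv2, Sik1 and Socs3. Of these, Fam134b, which encodes a receptor for autophagy of the endoplasmic reticulum, was at 163, 141, 169 and 107 CPM in control and 3361, 3819, 821 and 4294 CPM in subcutaneous C26 (log2 difference 4.40 ± 0.55, edgeR adjusted p = 7.45e-05). Sik1, which encodes a salt-inducible kinase, was at 11.02, 15.96, 12.02 and 13.9 CPM in control and 269, 295, 57.8 and 277 CPM in subcutaneous C26 (log2 difference 4.09 ± 0.64, edgeR adjusted p = 0.000269). For both genes every tumour library was above every control, with replicate 3 lowest.

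**Figure D1:**
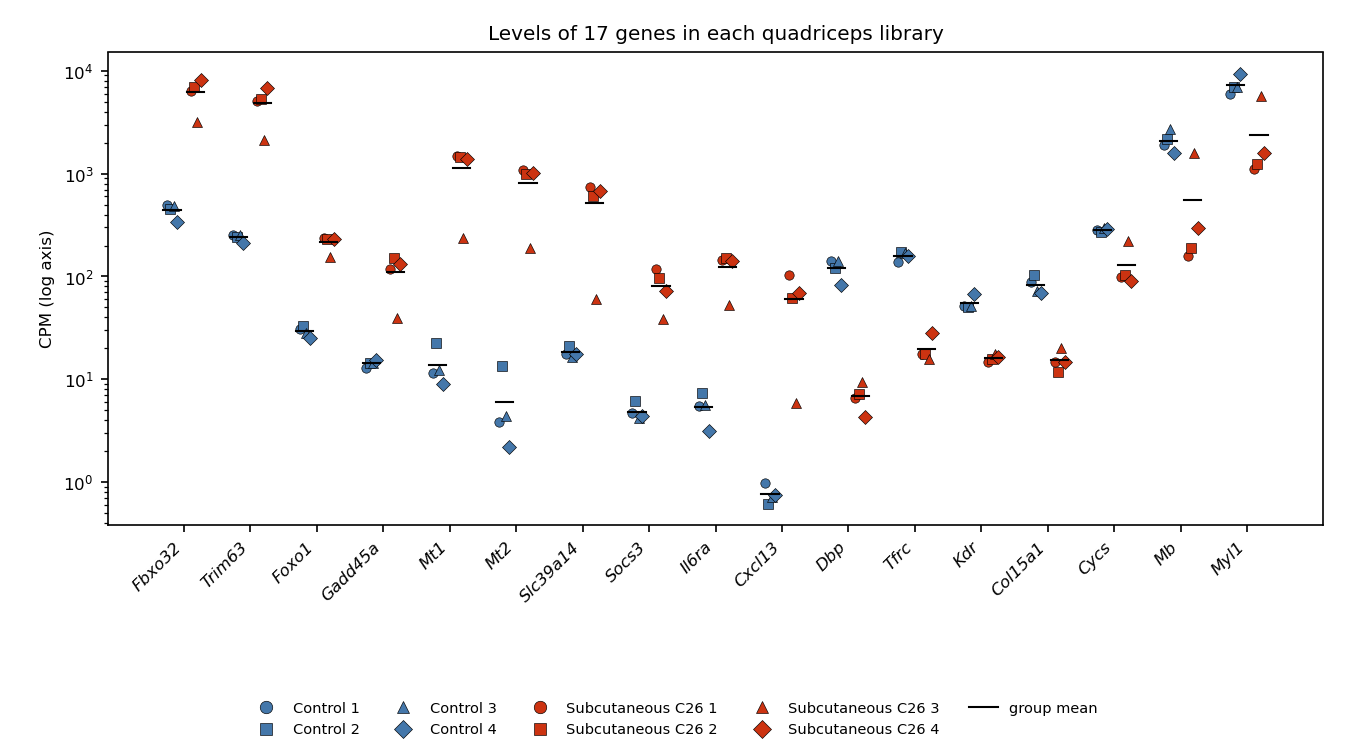
Levels of named genes in each of the 8 libraries, in CPM on a logarithmic axis, with 1 point per library and the group marked by colour. Tumour libraries sit apart from control libraries for the genes that rose, and replicate 3 of subcutaneous C26 sits nearest to the controls in most of them.

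The muscle ubiquitin ligase genes Fbxo32 and Trim63 rose strongly. Fbxo32, which encodes the muscle ligase atrogin-1 (chr15:58175879-58214932, - strand), was at 497, 452, 482 and 340.1 CPM in control and 6357, 7013, 3168 and 8070.5 CPM in subcutaneous C26 (log2 difference 3.80 ± 0.30, edgeR adjusted p = 5.16e-06). Trim63, which encodes the ligase MuRF1 (chr4:134315120-134329629, + strand), was at 253, 245, 252 and 211 CPM in control and 5089, 5337, 2105 and 6798 CPM in subcutaneous C26 (log2 difference 4.33 ± 0.40, edgeR adjusted p = 1.04e-05). In both genes tumour replicate 3 was the lowest of its group and still several times above the highest control. Of the 21 ligase genes linked to atrophy, 11 rose, 4 fell (Fbxl22, Fbxo40, Smurf1 and Trim32) and 6 did not pass, with a median log2 difference of 0.39 against -0.02 for all genes. Fbxl22, an F-box gene of striated muscle, was at 2.64, 2.37, 2.47 and 3.49 CPM in control and 0.669, 0.730, 0.704 and 0.667 CPM in subcutaneous C26 (log2 difference -1.98 ± 0.23, edgeR adjusted p = 4.85e-05), with all tumour libraries below all controls. Ligase genes (19%) fell at a share within 10 percentage points of that of all genes (23.1%). They rose at a share of 52.4%, against 27% of all genes. Ligase genes that fell (4) numbered 8 with upper-quartile scaling. Trim32 no longer passed without control 1, 3 or 4 or tumour replicate 2 or 4, and over all alternatives the edgeR, limma or DESeq2 adjusted p of this gene was 0.00315 to 0.142.

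FoxO genes moved in opposite directions. Foxo1 was at 30.6, 33.3, 28.4 and 25.2 CPM in control and 237, 233, 156 and 233 CPM in subcutaneous C26 (log2 difference 2.87 ± 0.26, edgeR adjusted p = 1.04e-05) and Foxo3 had a log2 difference of 1.81 ± 0.18 (adjusted p = 1.7e-05). Foxo6, a less studied family member, was at 5.92, 7.13, 7.88 and 4.98 CPM in control and 0.510, 0.508, 1.28 and 0.0741 CPM in subcutaneous C26 (log2 difference -3.46 ± 0.46, edgeR adjusted p = 9.61e-05). The groups did not overlap for these 3 genes. Of the 18 FoxO and FoxO-linked genes, 11 rose (61.1%, against 27% of all genes), 3 fell (Foxo6, Sesn3 and Txnip) and 4 did not pass. The median was 1.93 and the highest log2 difference was 3.67 (Eif4ebp1, given below). Fbxo32 and Trim63 are not members of this list. Gadd45a, a stress gene that rises in denervated and wasting muscle, was at 12.9, 14.5, 14.5 and 15.5 CPM in control and 117, 151, 39.4 and 132 CPM in subcutaneous C26 (log2 difference 2.94 ± 0.40, edgeR adjusted p = 0.000115). Cdkn1a, which encodes the cell cycle inhibitor p21, rose by 3.33 ± 0.61. Eda2r, a receptor gene of the tumour necrosis factor family, rose by 1.57 ± 0.43 and was highest in tumour replicate 3, at 64.2 CPM against 38.9 to 45.2 CPM in the other tumour libraries. The window before and after the start of Trim63 (RefSeq, GRCm38.p6, chr4:134314870-134315169, plus strand) is shown because the factors named above are known to act at this promoter. Capitals mark 1 match to the glucocorticoid receptor motif (GNACA and TGTNC with 3 bases between them) followed, after 1 base, by 1 match on the other strand to the FoxO motif GTAAACA.
Trim63 promoter: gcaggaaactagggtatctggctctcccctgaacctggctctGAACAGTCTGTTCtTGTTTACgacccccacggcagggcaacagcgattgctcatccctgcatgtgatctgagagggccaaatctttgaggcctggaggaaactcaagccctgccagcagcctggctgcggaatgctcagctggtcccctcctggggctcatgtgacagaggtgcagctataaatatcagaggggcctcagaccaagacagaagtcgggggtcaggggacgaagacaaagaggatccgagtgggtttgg
The receptor match spans positions -208 to -196 and the FoxO match positions -194 to -188 from the start. Of all 32851 windows, 0.475% held the receptor motif and 3.65% the FoxO motif on either strand. FoxO-linked genes (16.7%) fell at a share within 10 percentage points of that of all genes (23.1%).

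Most genes of proteasome subunits rose. Of 14 genes of the 20S core, the chamber that cuts proteins, 13 rose and 1 did not pass (median 1.04). All 6 ATPases of the 19S cap, which unfold substrates, rose (median 1.15), as did 12 of 15 measured of 16 listed other cap subunits (median 1.03), and none of these 3 groups had a member that fell. Among all genes 27% were higher. Psmc2, an ATPase gene, was at 113, 120.0, 112 and 116 CPM in control and 307, 388, 225 and 391 CPM in subcutaneous C26 (log2 difference 1.51 ± 0.23, edgeR adjusted p = 0.000197). Psma5, of the core, was at 40.4, 35.7, 34.8 and 33.1 CPM in control and 75.5, 85.4, 67.6 and 96.4 CPM in subcutaneous C26 (log2 difference 1.17 ± 0.17, edgeR adjusted p = 0.000158). All tumour libraries were above all controls for both genes, and replicate 3 was the lowest tumour library for both. Of the 12 measured of 13 listed activators, assembly factors and regulators, 7 rose, among them the stress-responsive transcription factor gene Nfe2l2 at 1.27 ± 0.14, and 5 did not pass. Of 16 measured of 17 listed genes of antigen presentation, 3 fell (Psme1, Psmb10 and Tap2), 1 rose (Calr) and 12 did not pass. Psme1, a subunit gene of the interferon-inducible 11S activator, was at 40.5, 38.4, 38.2 and 37.8 CPM in control and 19.4, 16.1, 31.3 and 17.7 CPM in subcutaneous C26 (log2 difference -0.88 ± 0.19, edgeR adjusted p = 0.00166). Antigen presentation genes (18.8%) fell at a share within 10 percentage points of that of all genes (23.1%). Proteasome activator and assembly genes that rose (7) numbered 4 without tumour replicate 2 or with upper-quartile scaling. Antigen presentation genes that fell (3) numbered 5 with upper-quartile scaling. Tap2 no longer passed without any 1 control or tumour replicate 2, 3 or 4 or sham replicate 1, 3 or 4 or splenic replicate 2 or with the 10 most abundant genes removed, and over all alternatives the edgeR, limma or DESeq2 adjusted p of this gene was 0.0131 to 0.186.

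Genes of ubiquitin supply and removal moved unequally. Of 36 genes for ubiquitin, E1 and E2 enzymes, 12 rose, 4 fell (Ube2n, Uba3, Ube2e2 and Ube2e1) and 20 did not pass (median 0.18), a balance that turned to 7 higher and 11 lower with upper-quartile scaling. Of 36 deubiquitinase genes 20 rose and 0 fell (median 0.43), with Usp36, a nucleolar enzyme, at 1.29 ± 0.17. Ubiquitin, E1 and E2 genes (33.3%) rose at a share within 10 percentage points of that of all genes (27%). Ubiquitin, E1 and E2 genes that rose (12) numbered 7 without tumour replicate 2 or with upper-quartile scaling. Ubiquitin, E1 and E2 genes that fell (4) numbered 11 with upper-quartile scaling, 2 without tumour replicate 1 and 8 without tumour replicate 3. Deubiquitinase genes that rose (20) numbered 11 with upper-quartile scaling and 13 without tumour replicate 2. Deubiquitinase genes that fell (0) numbered 2 with upper-quartile scaling. Ube2e2 no longer passed without control 1 or tumour replicate 1. Ube2e1 no longer passed without control 2, 3 or 4 or tumour replicate 1 or 4, and over all alternatives the edgeR, limma or DESeq2 adjusted p of these genes was 0.00138 to 0.207.

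More autophagy and lysosome genes rose than fell. Map1lc3b, which encodes the autophagosome protein LC3B, was at 125, 119, 138 and 129 CPM in control and 465, 538, 357 and 597 CPM in subcutaneous C26 (log2 difference 1.94 ± 0.24, edgeR adjusted p = 5.88e-05). Sqstm1, the cargo receptor p62, was at 566, 534, 547 and 569 CPM in control and 1202, 1477, 1215 and 1896 CPM in subcutaneous C26 (log2 difference 1.39 ± 0.19, edgeR adjusted p = 0.000115). Zfand5, a zinc finger gene whose product binds the proteasome, rose by 1.69 ± 0.17. For these 3 genes the groups did not overlap. Of the 39 autophagy genes 20 rose, 3 fell (Fundc1, Atg10 and Atg4a) and 16 did not pass (median 0.43), while 27% of all genes were higher. Fundc1, the mitophagy receptor that marks mitochondria in low oxygen, was at 22.9, 23.9, 25.9 and 24.8 CPM in control and 13.2, 13.2, 21.6 and 12.4 CPM in subcutaneous C26 (log2 difference -0.69 ± 0.16, edgeR adjusted p = 0.00281). Of 33 measured of 34 listed lysosomal genes 17 rose, 1 fell (Atp6ap1) and 15 did not pass (median 0.50). Gaa, which encodes the acid glucosidase that breaks down lysosomal glycogen, was at 238, 234, 256 and 261 CPM in control and 1073, 1391, 624 and 1175 CPM in subcutaneous C26 (log2 difference 2.108 ± 0.31, edgeR adjusted p = 0.000163). Among calpain, calpastatin and caspase genes 2 of 17 rose (Capn2 and Cast) and 3 fell. Calpain and caspase genes (17.6%) fell at a share within 10 percentage points of that of all genes (23.1%). Autophagy genes that fell (3) numbered 5 with upper-quartile scaling. Lysosomal genes that rose (17) numbered 10 with upper-quartile scaling. Lysosomal genes that fell (1) numbered 5 with upper-quartile scaling and 3 in the fit of the 8 libraries alone. Calpain and caspase genes that fell (3) numbered 5 without control 4 or tumour replicate 4 or with upper-quartile scaling. Atg4a no longer passed without control 4. Atp6ap1 no longer passed without control 1 or 2 or tumour replicate 2 or 4, and over all alternatives the edgeR, limma or DESeq2 adjusted p of these genes was 0.000964 to 0.132.

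Receptor, transducer and feedback genes of the interleukin-6 pathway rose, and 3 genes of sister cytokines fell. Il6ra, the interleukin-6 receptor (chr3:89864059-89913196, - strand), was at 5.56, 7.37, 5.59 and 3.12 CPM in control and 143, 151, 52.8 and 142 CPM in subcutaneous C26 (log2 difference 4.497 ± 0.36, edgeR adjusted p = 5.16e-06). Stat3, the transcription factor it activates, was at 67.1, 63.6, 62.5 and 60.5 CPM in control and 294, 296, 255 and 315 CPM in subcutaneous C26 (log2 difference 2.19 ± 0.26, edgeR adjusted p = 4.85e-05). Socs3, a feedback inhibitor induced by STAT3, was at 4.69, 6.13, 4.25 and 4.37 CPM in control and 119, 95.8, 38.6 and 72.0 CPM in subcutaneous C26 (log2 difference 4.06 ± 0.43, edgeR adjusted p = 3.02e-05). None of the 3 genes had overlapping groups, and Stat3 in tumour replicate 3 was close to the other tumour libraries while Il6ra and Socs3 were well below them. Of the 22 measured of 24 listed pathway genes 13 rose, 3 fell (Cntfr, Lif and Lifr) and 6 did not pass (median 1.68). Among all genes 27% were higher. Cntfr, the receptor for ciliary neurotrophic factor, was at 36.2, 46.4, 29.6 and 67.8 CPM in control and 6.88, 3.59, 18.4 and 7.89 CPM in subcutaneous C26 (log2 difference -2.296 ± 0.48, edgeR adjusted p = 0.00154). The window of Socs3 (RefSeq, GRCm38.p6, chr11:117969317-117969616, minus strand) is shown with 1 match to the STAT motif TTCNNNGAA in capitals, at positions -154 to -146 from the start, and 8.3% of all windows held such a match on either strand.
Socs3 promoter: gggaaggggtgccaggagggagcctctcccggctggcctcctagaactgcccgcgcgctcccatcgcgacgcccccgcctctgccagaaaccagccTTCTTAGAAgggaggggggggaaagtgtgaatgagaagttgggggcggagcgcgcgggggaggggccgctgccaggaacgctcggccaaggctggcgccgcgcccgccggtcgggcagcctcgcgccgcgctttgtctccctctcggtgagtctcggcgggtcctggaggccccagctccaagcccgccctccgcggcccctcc Interleukin-6 pathway genes (13.6%) fell at a share within 10 percentage points of that of all genes (23.1%).

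Acute-phase genes moved in both directions. Of 20 measured of 22 listed genes 8 rose, 6 fell and 6 did not pass. Lbp, which encodes the lipopolysaccharide binding protein, was at 16.01, 20.4, 13.2 and 10.1 CPM in control and 109, 57.0, 45.8 and 113 CPM in subcutaneous C26 (log2 difference 2.44 ± 0.28, edgeR adjusted p = 4.83e-05). The protease inhibitor gene Serpina1b, which belongs to a set of near-identical genes whose reads can be shared, was at 3.51, 12.1, 4.54 and 18.5 CPM in control and 1.18, 0.952, 0.497 and 0.926 CPM in subcutaneous C26 (log2 difference -3.43 ± 0.83, edgeR adjusted p = 0.00391). Lbp was higher in all tumour libraries and Serpina1b lower in all, and the 2 highest controls for Serpina1b were controls 2 and 4, the libraries with the most albumin RNA. The 6 acute-phase genes that fell (Serpina1b, Serpina1a, Ahsg, Fgb, Hpx and Orm1) were 1 when controls 2 and 4 were left out, a choice made after values were seen. Acute-phase genes (30%) fell at a share within 10 percentage points of that of all genes (23.1%). They rose at a share of 40%, against 27% of all genes. Hpx no longer passed without control 2 or tumour replicate 2, 3 or 4 or by limma on the deposited log2 values. Orm1 no longer passed without control 1 or 2 or tumour replicate 2 or 4, and over all alternatives the edgeR, limma or DESeq2 adjusted p of these genes was 0.00475 to 0.744.

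**Figure D2:**
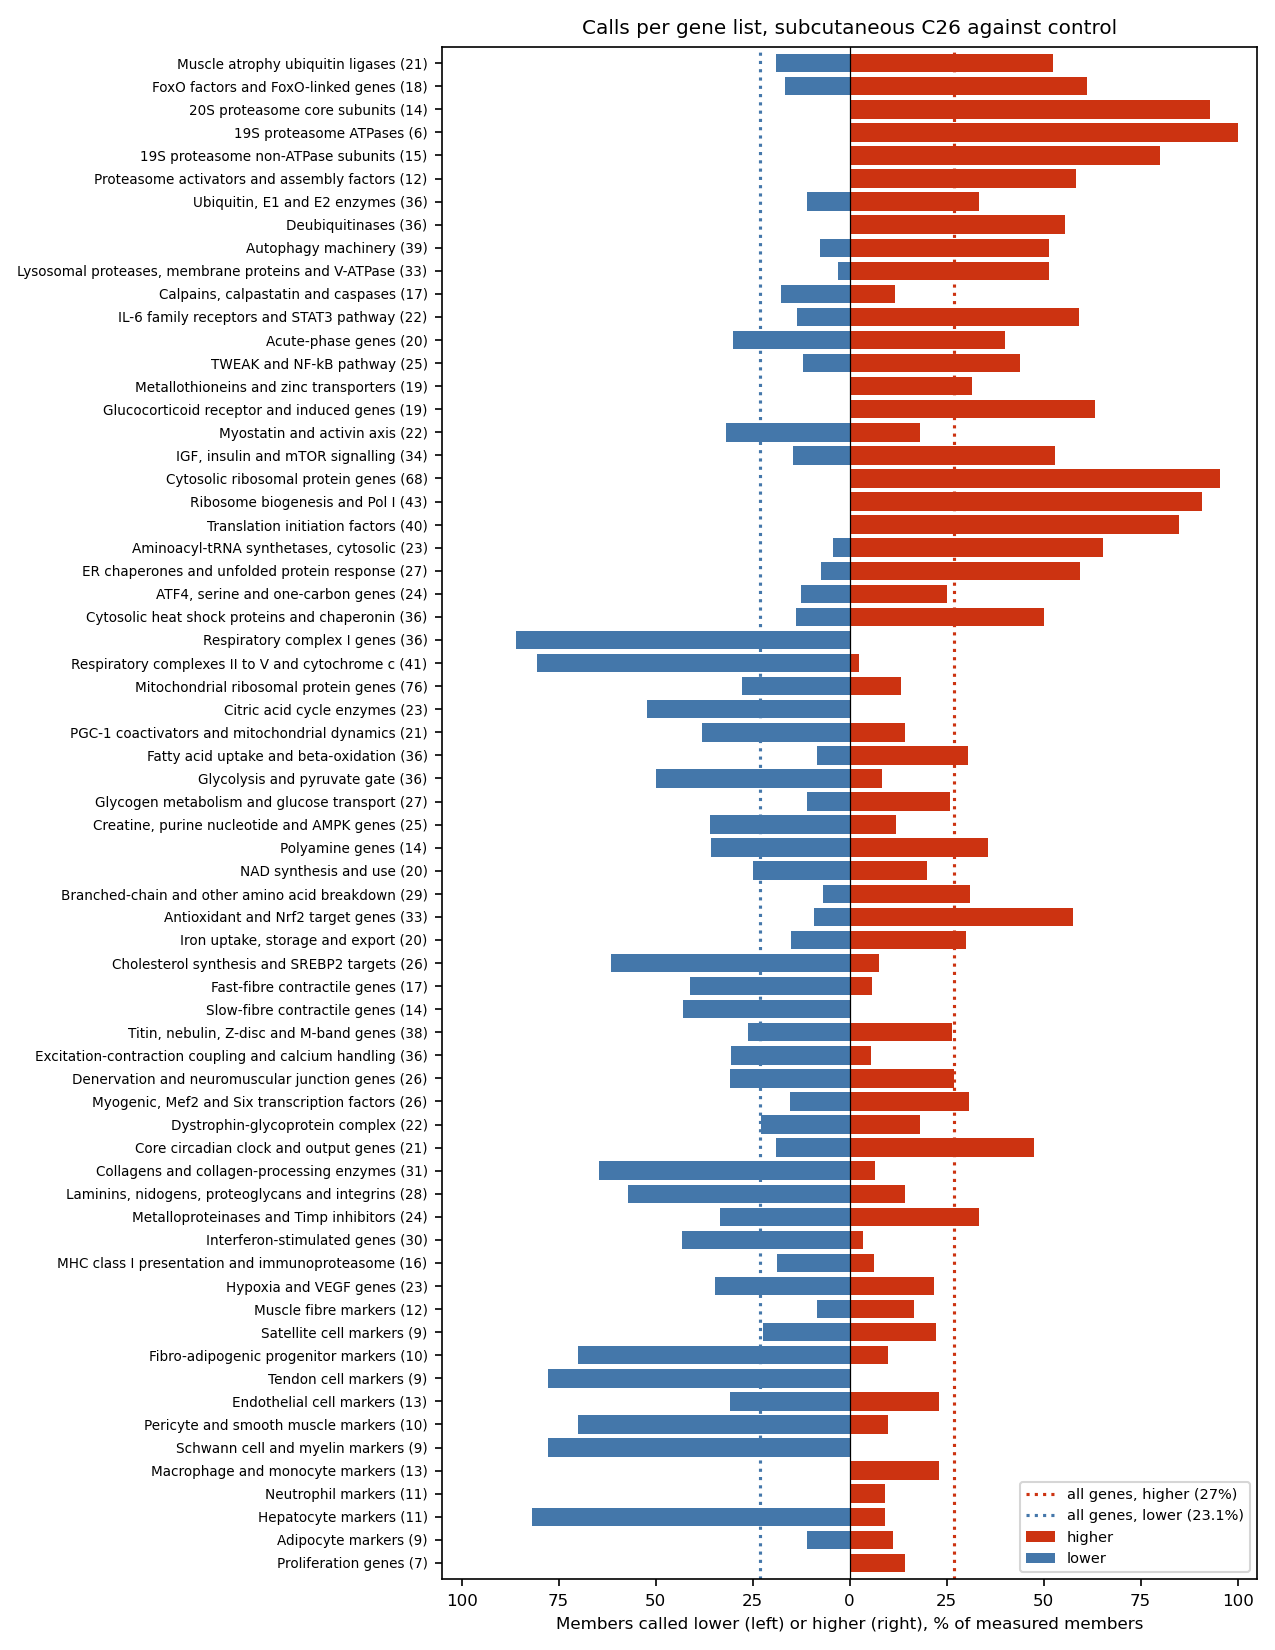
Genes of each list with at least 5 measured members that were higher (bars to the right) or lower (bars to the left) in subcutaneous C26 at an edgeR adjusted p under 0.05, as a percent of the measured genes. Proteasome, ribosome and initiation factor lists lie to the right, and respiratory complexes, collagens and cholesterol synthesis lie to the left.

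Most genes induced by glucocorticoids rose, and none of the list fell. The list shares its highest member, Mt2 (log2 difference 7.09), with the metallothionein list. Of the 19 measured of 20 listed genes 12 rose and 7 did not pass (median 1.30), while 27% of all genes were higher and 23.1% lower. Zbtb16, a transcription factor gene that responds strongly to the hormone, was at 68.8, 90.2, 73.2 and 62.3 CPM in control and 344, 341, 218 and 382 CPM in subcutaneous C26 (log2 difference 2.126 ± 0.18, edgeR adjusted p = 7.06e-06). Fkbp5, a chaperone that tunes the receptor, was at 41.1, 109, 49.9 and 33.6 CPM in control and 478, 483, 273 and 444 CPM in subcutaneous C26 (log2 difference 2.85 ± 0.43, edgeR adjusted p = 0.000226). Both had groups apart, and control 2 was the highest control for each. Glul, which encodes glutamine synthetase, was at 393, 489.8, 286 and 171 CPM in control and 2214, 2271, 1293 and 2384 CPM in subcutaneous C26 (log2 difference 2.61 ± 0.34, edgeR adjusted p = 8.73e-05).

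More genes of insulin, IGF1 and mTOR signalling rose than fell. RNA levels do not give the direction of the signalling. Of 34 measured of 35 listed genes 18 rose, 5 fell (Igfbp6, Mlst8, Deptor, Igfbp5 and Rptor) and 11 did not pass (median 0.45). Eif4ebp1, the translation repressor that mTOR inactivates, was at 39.2, 33.4, 38.5 and 30.4 CPM in control and 499, 593, 183 and 525 CPM in subcutaneous C26 (log2 difference 3.67 ± 0.40, edgeR adjusted p = 3.26e-05). Igf1 itself was at 33.9, 28.0, 22.3 and 49.5 CPM in control and 34.7, 23.2, 20.8 and 30.1 CPM in subcutaneous C26 and did not pass (log2 difference -0.30 ± 0.23, edgeR adjusted p = 0.3). Igfbp6, a binding protein of IGF2, was at 66.8, 78.3, 49.1 and 35.0 CPM in control and 23.6, 11.9, 14.4 and 20.997 CPM in subcutaneous C26 (log2 difference -1.69 ± 0.35, edgeR adjusted p = 0.00148). The groups of Eif4ebp1 and Igfbp6 did not overlap and those of Igf1 did. Insulin, IGF and mTOR genes (14.7%) fell at a share within 10 percentage points of that of all genes (23.1%). They rose at a share of 52.9%, against 27% of all genes. Insulin, IGF and mTOR genes that fell (5) numbered 8 without tumour replicate 3.

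Mstn, which encodes the growth inhibitor myostatin, was at 82.5, 119.8, 94.2 and 92.8 CPM in control and 138, 134, 167 and 150.1 CPM in subcutaneous C26. All tumour libraries were above all controls, but the difference did not pass (log2 difference 0.60 ± 0.25, edgeR adjusted p = 0.0547; it passed under 5 of 26 alternatives, among them without control 2, with adjusted p from 0.00694 to 0.206 over all of them). Of 22 measured of 24 listed genes of the myostatin and activin axis 4 rose (Tgfbr1, Smad4, Tgfbr3 and Acvr1b), 7 fell and 11 did not pass. Inha, a subunit gene of inhibin, was at 1.61, 2.40, 2.65 and 2.81 CPM in control and 0.573, 0.698, 0.870 and 0.926 CPM in subcutaneous C26 (log2 difference -1.63 ± 0.27, edgeR adjusted p = 0.0004). Tgfbr1, the type I receptor gene, rose by 1.33 ± 0.20. Of 25 measured of 26 listed TWEAK and NF-kB genes 11 rose, 3 fell (Traf3, Tnfaip3 and Ccl2) and 11 did not pass. Map3k14, the kinase of the non-canonical branch, was at 8.43, 9.74, 8.03 and 11.4 CPM in control and 41.9, 58.5, 29.7 and 56.0 CPM in subcutaneous C26 (log2 difference 2.31 ± 0.25, edgeR adjusted p = 3.21e-05), and Traf3, which restrains that kinase, was at 22.6, 24.1, 31.4 and 41.0 CPM in control and 13.8, 16.7, 15.0 and 12.6 CPM in subcutaneous C26 (log2 difference -1.04 ± 0.18, edgeR adjusted p = 0.000423). The groups did not overlap for either gene. Tnfrsf12a, the TWEAK receptor gene Fn14, was at 26.3, 24.5, 15.98 and 42.1 CPM in control and 62.8, 85.6, 46.6 and 64.4 CPM in subcutaneous C26 and did not pass (log2 difference 1.25 ± 0.53, edgeR adjusted p = 0.0617), although the groups did not overlap; it passed without control 4 (adjusted p = 0.0451, with 0.00618 to 0.158 over all alternatives). Myostatin and activin axis genes (18.2%) rose at a share within 10 percentage points of that of all genes (27%). Myostatin and activin axis genes (31.8%) fell at a share within 10 percentage points of that of all genes (23.1%). TWEAK and NF-kB genes that fell (3) numbered 5 with upper-quartile scaling. Acvr1b no longer passed without tumour replicate 4. Ccl2 no longer passed without control 1 or 2 or tumour replicate 1, 2 or 4, and over all alternatives the edgeR, limma or DESeq2 adjusted p of these genes was 0.00396 to 0.145.

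Most genes of the protein synthesis machinery rose. Of 68 measured of 69 listed cytosolic ribosomal protein genes 65 rose and 0 fell (median 0.66), and of 43 measured of 44 listed genes of ribosome assembly and RNA polymerase I 39 rose and 0 fell (median 0.99). Among all genes 27% were higher and 23.1% lower. Myc, a driver of ribosome production, was at 5.28, 5.68, 5.78 and 3.63 CPM in control and 27.5, 36.1, 20.6 and 27.2 CPM in subcutaneous C26 (log2 difference 2.45 ± 0.23, edgeR adjusted p = 1.14e-05). Rps4x, of the small subunit, was at 158, 166, 163 and 148 CPM in control and 308, 284, 232 and 274 CPM in subcutaneous C26 (log2 difference 0.79 ± 0.14, edgeR adjusted p = 0.000441). For both genes the groups did not overlap and tumour replicate 3 was the lowest tumour library. Of 40 measured of 41 listed initiation factor genes 34 rose and 0 fell (median 0.77). The highest member of this list was the translation repressor gene Eif4ebp1 (log2 difference 3.67), given above. Of 23 cytosolic tRNA synthetase genes 15 rose and 1 fell. Vars, the valine enzyme, was at 31.7, 31.6, 37.6 and 38.5 CPM in control and 168, 199.6, 85.4 and 151 CPM in subcutaneous C26 (log2 difference 2.12 ± 0.27, edgeR adjusted p = 7.53e-05). The member that fell, the synthetase scaffold gene Aimp2, was at 209, 212, 189.6 and 231 CPM in control and 40.7, 44.9, 70.3 and 34.5 CPM in subcutaneous C26 (log2 difference -2.15 ± 0.27, edgeR adjusted p = 6.8e-05), with groups far apart. The members of the ribosomal list rose with TMM and with upper-quartile scaling, where 53 were higher. Initiation factor genes that fell (0) numbered 3 with upper-quartile scaling.

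Of 27 genes of the endoplasmic reticulum chaperones and unfolded protein response 16 rose, 2 fell (Ddit3 and Eif2ak3) and 9 did not pass (median 0.52). P4hb, a disulphide isomerase gene, was at 172, 173, 185 and 190.1 CPM in control and 438, 492, 305 and 349.7 CPM in subcutaneous C26 (log2 difference 1.14 ± 0.18, edgeR adjusted p = 0.00027). Ddit3, which encodes the stress factor CHOP, was at 8.02, 8.58, 7.70 and 6.81 CPM in control and 3.85, 4.38, 4.14 and 4.44 CPM in subcutaneous C26 (log2 difference -0.89 ± 0.14, edgeR adjusted p = 0.000254). The groups were apart for both genes, in opposite directions. Of 24 measured of 27 listed ATF4-linked genes 6 rose, 3 fell (Psph, Pycr1 and Aldh1l2) and 15 did not pass. Of 36 cytosolic heat shock and chaperonin genes 18 rose, 5 fell (Bag2, Hspb3, Hspb2, Hspa14 and Dnajb5) and 13 did not pass, with Cct4, a chaperonin subunit gene, at 1.09 ± 0.18. ATF4-linked genes (25%) rose at a share within 10 percentage points of that of all genes (27%). Heat shock and chaperonin genes (13.9%) fell at a share within 10 percentage points of that of all genes (23.1%). Endoplasmic reticulum genes that rose (16) numbered 9 with upper-quartile scaling. ATF4-linked genes that fell (3) numbered 8 with upper-quartile scaling, 5 by DESeq2 and 1 without control 3 or tumour replicate 4. Eif2ak3 no longer passed without any 1 control or tumour replicate 2, 3 or 4 or sham replicate 3 or 4. Pycr1 no longer passed without control 3 or 4 or tumour replicate 1 or 4. Aldh1l2 no longer passed without control 3 or 4 or tumour replicate 1, 2 or 4 or in the fit of the 8 libraries alone. Dnajb5 no longer passed without control 1, 2 or 3 or tumour replicate 1 or 4, and over all alternatives the edgeR, limma or DESeq2 adjusted p of these genes was 2.09e-05 to 0.154.

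Most genes of the respiratory chain fell, and here tumour replicate 3 was set apart from the other tumour libraries. Of 36 measured of 38 listed complex I genes 31 fell, 0 rose and 5 did not pass (median -0.71). Ndufc2, a complex I subunit gene, was at 91.8, 89.3, 90.4 and 78.5 CPM in control and 41.8, 39.2, 71.1 and 38.3 CPM in subcutaneous C26 (log2 difference -0.88 ± 0.17, edgeR adjusted p = 0.00101). Cycs, which encodes cytochrome c, was at 281, 273, 297 and 293 CPM in control and 99.5, 103, 219.7 and 90.8 CPM in subcutaneous C26 (log2 difference -1.16 ± 0.23, edgeR adjusted p = 0.00113). All tumour libraries lay below all controls for both genes, but replicate 3 was nearer to the controls than to its own group. The mean level of the complex I list, in log2 CPM relative to the control mean, was -0.97, -0.88, -0.01 and -0.86 in tumour replicates 1 to 4, against -0.07 to 0.11 in the controls. In replicate 3, 18 of the 31 genes that fell had a value within the range of the controls, and in replicates 1, 2 and 4 the numbers were 0, 0 and 0. Of 41 measured of 42 listed genes of complexes II to V and cytochrome c 33 fell, 1 rose (Atp5g2) and 7 did not pass (median -0.65), and 23 of these falls lay within the control range in replicate 3. Of 23 citric acid cycle genes 12 fell and 0 rose, with 7 falls within the control range in replicate 3. Mdh1, which encodes the cytosolic malate dehydrogenase and not the mitochondrial one, was at 556, 512, 562 and 446 CPM in control and 174, 180.0, 424 and 187 CPM in subcutaneous C26 (log2 difference -1.11 ± 0.25, edgeR adjusted p = 0.00247). Of 76 mitochondrial ribosomal protein genes 21 fell, 10 rose and 45 did not pass. Mitochondrial ribosomal protein genes (27.6%) fell at a share within 10 percentage points of that of all genes (23.1%). Citric acid cycle genes that fell (12) numbered 7 without tumour replicate 4 or in the fit of the 8 libraries alone. Mitochondrial ribosomal protein genes that rose (10) numbered 6 without control 2 or tumour replicate 2 or with upper-quartile scaling. Mitochondrial ribosomal protein genes that fell (21) numbered 43 with upper-quartile scaling and 35 without tumour replicate 3. Atp5g2 no longer passed without control 1 or 2 or any 1 tumour library or with upper-quartile scaling, and over all alternatives the edgeR, limma or DESeq2 adjusted p of this gene was 0.00606 to 0.28.

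**Figure D3:**
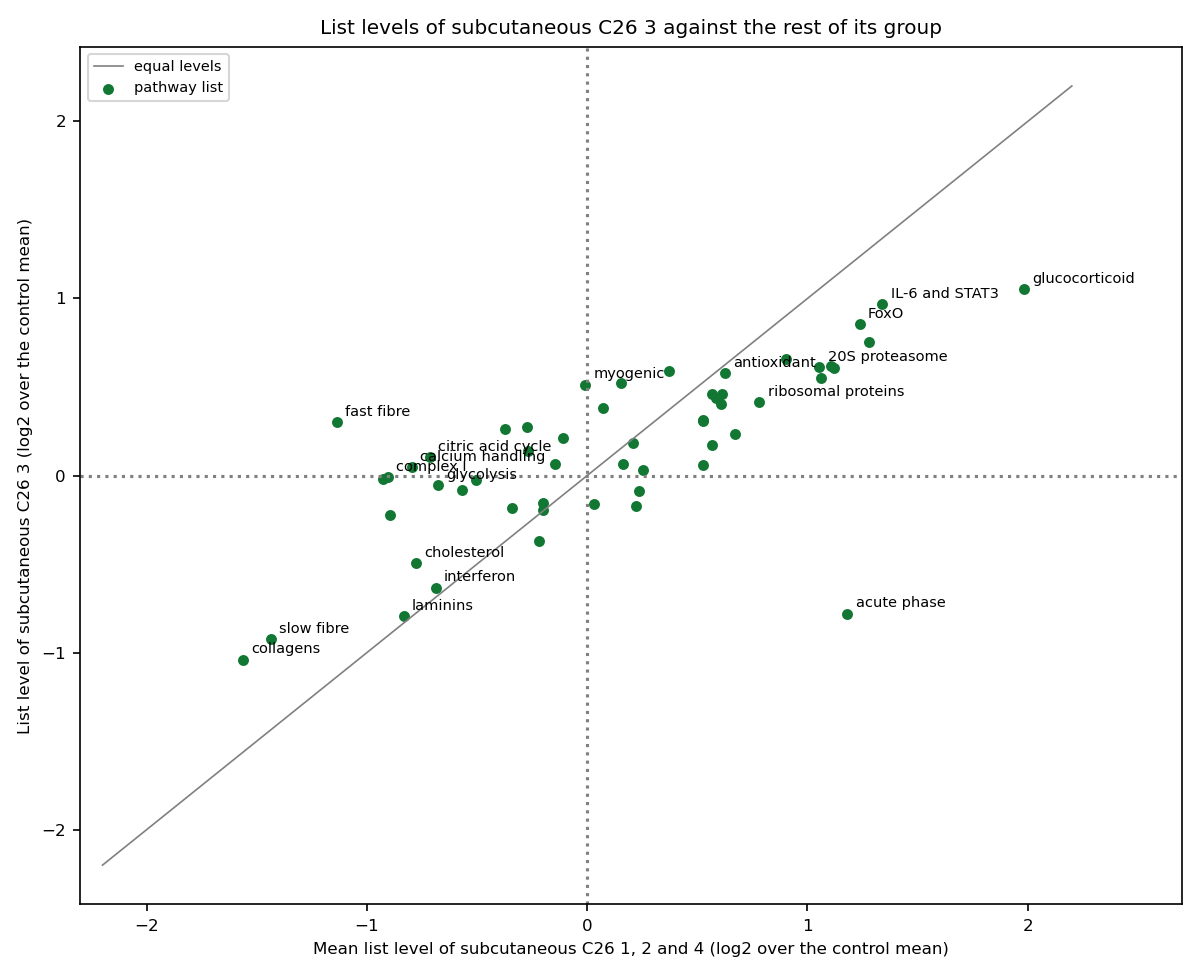
Mean log2 level of each pathway gene list relative to the control mean, in subcutaneous C26 replicate 3 (vertical axis) against the mean of replicates 1, 2 and 4 (horizontal axis), with 1 point per list. Lists on the diagonal line have the same level in both. The lists of complex I, the citric acid cycle and glycolysis lie near 0 in replicate 3. The collagen and FoxO-linked lists lie away from 0 on the side of the other tumour libraries. So does the slow-fibre list, but its level in replicate 3 (-0.92) is within that of the controls (-1.05 to 1.34).

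Genes of glycolysis and the pyruvate gate fell in 18 of 36 measured of 37 listed cases and rose in 3 (Pdk4, Pfkfb4 and Gpi1), and 7 of the falls lay within the control range in replicate 3. Among all genes 23.1% were lower. Pdk4, the kinase that blocks pyruvate entry into mitochondria, was at 1214, 225, 1294 and 1192 CPM in control and 5776, 6458, 3103 and 7099 CPM in subcutaneous C26 (log2 difference 2.52 ± 0.45, edgeR adjusted p = 0.000581). All tumour libraries exceeded all controls, and control 2 was the lowest control by a wide margin. Pfkfb2, which makes the activator of phosphofructokinase, was at 22.3, 22.4, 25.9 and 28.7 CPM in control and 12.9, 11.5, 16.7 and 13.6 CPM in subcutaneous C26 (log2 difference -0.86 ± 0.14, edgeR adjusted p = 0.000355). Of 36 fatty acid uptake and oxidation genes 11 rose, 3 fell (Acaa2, Hadh and Acads) and 22 did not pass. Acot2, a mitochondrial thioesterase gene whose reads can be shared with Acot1, was at 18.4, 9.15, 20.7 and 12.5 CPM in control and 75.03, 96.7, 65.1 and 102 CPM in subcutaneous C26 (log2 difference 2.48 ± 0.29, edgeR adjusted p = 5.29e-05). Acaa2, the last enzyme of the oxidation cycle, was at 194, 125, 181 and 126 CPM in control and 43.25, 42.6, 153 and 45.7 CPM in subcutaneous C26 (log2 difference -1.14 ± 0.36, edgeR adjusted p = 0.0168), and replicate 3 lay within the control range. Among creatine, purine nucleotide and AMPK genes 9 of 25 fell and 3 rose (Ampd3, Prkaa2 and Prkab1). Ampd3, an AMP deaminase, was at 17.1, 12.4, 12.5 and 13.6 CPM in control and 251, 287, 20.6 and 254 CPM in subcutaneous C26 (log2 difference 3.87 ± 0.79, edgeR adjusted p = 0.00136), with replicate 3 just above the controls. Prkag3, the fast-muscle AMPK subunit gene, was at 95.2, 126, 125 and 142 CPM in control and 12.2, 14.0, 36.2 and 8.85 CPM in subcutaneous C26 (log2 difference -2.78 ± 0.52, edgeR adjusted p = 0.000848), with all tumour libraries below all controls. Ppargc1a, the coactivator of mitochondrial biogenesis, was at 56.0, 53.8, 67.7 and 78.7 CPM in control and 62.9, 74.5, 141 and 175 CPM in subcutaneous C26 and did not pass (log2 difference 0.82 ± 0.67, edgeR adjusted p = 0.319). It passed when splenic replicate 3, a library outside this comparison, was left out (log2 difference 0.82 ± 0.26, edgeR adjusted p = 0.0167). Fatty acid genes (30.6%) rose at a share within 10 percentage points of that of all genes (27%). Glycolysis genes that rose (3) numbered 1 without control 1, control 3, tumour replicate 2, tumour replicate 3 or tumour replicate 4 or with upper-quartile scaling. Fatty acid genes that rose (11) numbered 7 without control 2 or with upper-quartile scaling. Fatty acid genes that fell (3) numbered 8 without tumour replicate 3 or with upper-quartile scaling and 1 without control 1, control 3, tumour replicate 1, tumour replicate 2 or tumour replicate 4. Creatine, nucleotide and AMPK genes that fell (9) numbered 15 with upper-quartile scaling. Pfkfb4 no longer passed without control 1 or 3 or tumour replicate 2, 3 or 4 or with upper-quartile scaling. Gpi1 no longer passed without control 1, 2 or 3 or any 1 tumour library or any 1 sham library or splenic replicate 2 or 4 or with upper-quartile scaling or with RLE size factors or with the minimum of 1 CPM. Hadh and Acads no longer passed without control 1 or 3 or tumour replicate 1, 2 or 4 or in the fit of the 8 libraries alone. Prkab1 no longer passed without control 2 or 3 or tumour replicate 1, 2 or 4 or with upper-quartile scaling, and over all alternatives the edgeR, limma or DESeq2 adjusted p of these genes was 9.68e-05 to 0.381.

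More fast- and slow-fibre contractile genes fell than rose. Of 17 fast-fibre genes 7 fell, 1 rose (Mylk2) and 9 did not pass, while 27% of all genes were higher and 23.1% lower. The mean level of this list was -1.33, -1.16, 0.30 and -0.92 in tumour replicates 1 to 4. Myh4, the myosin heavy chain of fast IIb fibres, was at 42602, 43603, 68633 and 88094 CPM in control and 40237, 47752, 123595 and 68477 CPM in subcutaneous C26 and did not pass (log2 difference 0.21 ± 0.34, edgeR adjusted p = 0.629); without tumour replicate 3 its log2 difference was -0.22. Myh2, the heavy chain of IIa fibres, was at 1508, 1552, 2007 and 985 CPM in control and 499, 575, 877 and 388 CPM in subcutaneous C26 (log2 difference -1.37 ± 0.36, edgeR adjusted p = 0.0066), with all tumour libraries below all controls. Myl1, a fast light chain gene, was at 5903, 6870.4, 7019 and 9294 CPM in control and 1098, 1239, 5639 and 1582 CPM in subcutaneous C26 (log2 difference -1.61 ± 0.42, edgeR adjusted p = 0.00568), and replicate 3 was close to the lowest control. Of 14 slow-fibre genes 6 fell, 0 rose and 8 did not pass. Within the control range lay 3, 4, 4 and 0 of these falls in tumour replicates 1 to 4. The slow-fibre list level was -0.99, -0.77, -0.92 and -2.55 in tumour replicates 1 to 4 and -1.05 to 1.34 in the controls. Casq2, the slow-fibre and cardiac calsequestrin, was at 21.2, 20.9, 35.6 and 19.4 CPM in control and 5.70, 5.33, 9.98 and 3.30 CPM in subcutaneous C26 (log2 difference -2.001 ± 0.38, edgeR adjusted p = 0.000891). Myh7, the slow myosin heavy chain, was at 1.97, 11.8, 158 and 31.0 CPM in control and 11.2, 10.8, 5.96 and 0.481 CPM in subcutaneous C26 and did not pass (log2 difference -2.83 ± 1.17, edgeR adjusted p = 0.0565), with widely spread controls. It passed without control 1 (edgeR adjusted p = 0.0273), control 2 (0.049), sham replicate 1 (0.0459) or splenic replicate 1 (0.0488). It also passed with upper-quartile scaling (edgeR adjusted p = 0.0398) and by DESeq2 (adjusted p = 0.0237). Over all alternatives its adjusted p was 0.0237 to 0.416. Ckm, muscle creatine kinase, was at 14127, 15199, 19399.9 and 22308 CPM in control and 10526, 12125, 27805 and 14809 CPM in subcutaneous C26 and did not pass (log2 difference -0.12 ± 0.28, edgeR adjusted p = 0.731); without tumour replicate 3 its log2 difference was -0.51 (adjusted p = 0.0447, with 0.0447 to 0.987 over all alternatives). Fast-fibre genes that fell (7) numbered 4 without control 4, tumour replicate 2 or tumour replicate 4 or in the fit of the 8 libraries alone. Slow-fibre genes that fell (6) numbered 3 without control 3, tumour replicate 1 or tumour replicate 4 or by limma on the deposited log2 values.

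Of 38 titin, nebulin, Z-disc and M-band genes 10 rose, 10 fell and 18 did not pass, a balance that turned to 7 higher and 15 lower with upper-quartile scaling. Flnc, which encodes filamin C of the Z-disc, was at 1186, 1000.4, 968 and 1675 CPM in control and 7883, 11043, 3404 and 8508 CPM in subcutaneous C26 (log2 difference 2.67 ± 0.45, edgeR adjusted p = 0.000401). Myom3, a myomesin gene of the M-band, was at 52.1, 41.9, 47.7 and 34.1 CPM in control and 10.96, 7.78, 13.6 and 3.26 CPM in subcutaneous C26 (log2 difference -2.304 ± 0.38, edgeR adjusted p = 0.000361). The groups did not overlap for either gene. Of 36 genes of excitation-contraction coupling and calcium handling 11 fell, 2 rose (Cacng1 and Mtm1) and 23 did not pass. Of 26 measured of 28 listed denervation and junction genes 7 rose and 8 fell; Musk, the kinase that organises the junction, rose by 1.64 ± 0.45, and Ache, which encodes acetylcholinesterase, fell with a log2 difference of -1.999 ± 0.66. Z-disc and M-band genes (26.3%) and denervation and junction genes (26.9%) rose at a share within 10 percentage points of that of all genes (27%). Z-disc and M-band genes (26.3%), coupling and calcium genes (30.6%) and denervation and junction genes (30.8%) fell at a share within 10 percentage points of that of all genes (23.1%). Z-disc and M-band genes that rose (10) numbered 6 without tumour replicate 2. Z-disc and M-band genes that fell (10) numbered 6 without control 3, 4 without control 4, tumour replicate 1, tumour replicate 2 or tumour replicate 4 and 17 without tumour replicate 3. Coupling and calcium genes that fell (11) numbered 21 without tumour replicate 3. Denervation and junction genes that fell (8) numbered 5 without tumour replicate 1. Mtm1 no longer passed without control 1 or 2 or tumour replicate 2 or with upper-quartile scaling. Ache no longer passed without tumour replicate 1, 2 or 4, and over all alternatives the edgeR, limma or DESeq2 adjusted p of these genes was 0.00137 to 0.286.

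Circadian genes moved in both directions. Dbp, an output factor of the circadian clock (chr7:45705088-45710203, + strand), was at 140.2, 121, 141 and 83.1 CPM in control and 6.62, 7.14, 9.36 and 4.30 CPM in subcutaneous C26 (log2 difference -4.14 ± 0.38, edgeR adjusted p = 1.12e-05). Arntl, which encodes the activator BMAL1, was at 15.5, 20.2, 14.4 and 23.4 CPM in control and 38.3, 43.33, 38.1 and 53.7 CPM in subcutaneous C26 (log2 difference 1.24 ± 0.36, edgeR adjusted p = 0.0111). Per1, a repressor of the clock, rose by 1.48 ± 0.39. The groups were apart for all of these genes, and for Per1 the lowest tumour library, replicate 3, was only just above the highest control (77.6 against 77.5 CPM). Of 21 measured of 22 listed clock genes 10 rose, 4 fell (Dbp, Hlf, Bhlhe41 and Nr1d1) and 7 did not pass. The labels give no time of day for the collection of tissue, so its part in these values was not tested. Clock genes (19%) fell at a share within 10 percentage points of that of all genes (23.1%). They rose at a share of 47.6%, against 27% of all genes. Clock genes that fell (4) numbered 7 with upper-quartile scaling.

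Iron, redox and polyamine genes moved in both directions, and most cholesterol synthesis genes fell. Tfrc, the receptor that takes up transferrin-bound iron, was at 139, 173, 170.0 and 158 CPM in control and 17.7, 17.8, 15.7 and 28.3 CPM in subcutaneous C26 (log2 difference -3.01 ± 0.28, edgeR adjusted p = 1.04e-05). Hmox1, which frees iron from haem, was at 12.4, 11.1, 8.54 and 10.4 CPM in control and 62.9, 68.4, 21.7 and 91.3 CPM in subcutaneous C26 (log2 difference 2.53 ± 0.37, edgeR adjusted p = 0.000185). Both had groups apart, and of 20 measured of 22 listed iron genes 6 rose and 3 fell (Tfrc, Steap3 and Aco1). Of 26 measured of 27 listed cholesterol synthesis genes 16 fell, 2 rose (Fdft1 and Ebp) and 8 did not pass (median -0.78). Dhcr7, the last enzyme of the pathway, was at 12.01, 10.9, 9.44 and 9.32 CPM in control and 1.75, 1.52, 3.48 and 1.70 CPM in subcutaneous C26 (log2 difference -2.31 ± 0.27, edgeR adjusted p = 5.29e-05), whereas Fdft1, squalene synthase, was at 73.8, 61.8, 86.1 and 63.5 CPM in control and 185, 228, 144 and 288 CPM in subcutaneous C26 (log2 difference 1.57 ± 0.25, edgeR adjusted p = 0.000317). Of 33 antioxidant genes 19 rose and 3 fell (Gsta4, Sod2 and Prdx2). Gpx3, a secreted glutathione peroxidase, was at 401, 331, 443 and 268 CPM in control and 1565, 1447, 1519.8 and 1792 CPM in subcutaneous C26 (log2 difference 2.132 ± 0.20, edgeR adjusted p = 1.04e-05), with replicate 3 level with the other tumour libraries. Of 14 measured of 17 listed polyamine genes 5 rose (Srm, Ahcy, Sat1, Odc1 and Paox) and 5 fell (Arg1, Mat2a, Smox, Oaz2 and Azin2). With upper-quartile scaling 4 polyamine genes rose and 7 fell. Srm, spermidine synthase, was at 6.79, 8.02, 5.78 and 5.79 CPM in control and 19.7, 25.3, 10.3 and 18.2 CPM in subcutaneous C26 (log2 difference 1.48 ± 0.24, edgeR adjusted p = 0.000312). Iron genes (30%) and polyamine genes (35.7%) rose at a share within 10 percentage points of that of all genes (27%). Iron genes (15%) fell at a share within 10 percentage points of that of all genes (23.1%). Iron genes that fell (3) numbered 5 with upper-quartile scaling or by DESeq2 or by limma on the deposited log2 values or in the fit of the 8 libraries alone. Polyamine genes that fell (5) numbered 3 without control 3, tumour replicate 2 or tumour replicate 4 and 8 without tumour replicate 3. Aco1 no longer passed without control 1 or 3 or tumour replicate 1, 2 or 4. Ebp no longer passed without control 2, 3 or 4 or tumour replicate 1, 2 or 4 or sham replicate 2 or with upper-quartile scaling or in the fit of the 8 libraries alone. Prdx2 no longer passed without control 3 or in the fit of the 8 libraries alone. Paox no longer passed without control 1, 2 or 4 or tumour replicate 1, 2 or 4 or with upper-quartile scaling. Oaz2 no longer passed without control 3 or tumour replicate 2 or 4. Azin2 no longer passed without any 1 control or tumour replicate 1, 2 or 4 or sham replicate 1, 3 or 4 or splenic replicate 3 or in the fit of the 8 libraries alone or with the 10 most abundant genes removed, and over all alternatives the edgeR, limma or DESeq2 adjusted p of these genes was 0.000108 to 0.274.

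Most collagen and laminin-type matrix genes fell, in replicate 3 too, while metalloproteinase genes moved in both directions. Of 31 measured of 32 listed collagen and collagen-processing genes 20 fell, 2 rose (Lox and Plod3) and 9 did not pass (median -1.45). The mean list level was -1.31, -1.91, -1.04 and -1.47 in tumour replicates 1 to 4 against -0.21 to 0.27 in the controls, and 0 of the falls lay within the control range in replicate 3. Col15a1, a collagen of basement membranes, was at 88.2, 103, 71.8 and 69.8 CPM in control and 14.9, 11.9, 20.04 and 14.8 CPM in subcutaneous C26 (log2 difference -2.43 ± 0.31, edgeR adjusted p = 8.5e-05). Lox, the enzyme that cross-links collagen, was at 17.6, 22.8, 12.3 and 14.0 CPM in control and 49.0, 27.1, 23.5 and 49.1 CPM in subcutaneous C26 (log2 difference 1.15 ± 0.29, edgeR adjusted p = 0.00438). Of 28 laminin, nidogen, proteoglycan and integrin genes 16 fell and 4 rose, all 4 of them integrins (Itga5, Itgb5, Itga7 and Itgb1). The falls made up 64.5% of the collagen list and 57.1% of the laminin-type list, against 23.1% of all genes. Nid2, a basement membrane linker, was at 27.9, 34.0, 25.6 and 21.8 CPM in control and 4.87, 3.71, 4.47 and 6.22 CPM in subcutaneous C26 (log2 difference -2.50 ± 0.38, edgeR adjusted p = 0.000226). Among metalloproteinases and their inhibitors 8 of 24 rose and 8 fell. Mmp3, stromelysin 1, was at 1.18, 1.21, 0.363 and 0.678 CPM in control and 13.1, 7.81, 6.67 and 12.6 CPM in subcutaneous C26 (log2 difference 3.52 ± 0.42, edgeR adjusted p = 5.44e-05). For all 4 of these genes the groups did not overlap. In replicate 3, 1 of the 16 laminin-type falls, 3 of the 4 integrin rises, 3 of the 8 metalloproteinase rises and 0 of the 8 metalloproteinase falls lay within the control range, and in the other tumour libraries none did. Metalloproteinase and inhibitor genes (33.3%) rose at a share within 10 percentage points of that of all genes (27%). Laminin and integrin genes that rose (4) numbered 1 with upper-quartile scaling and 2 without tumour replicate 1 or tumour replicate 2. Metalloproteinase and inhibitor genes that rose (8) numbered 5 with upper-quartile scaling. Metalloproteinase and inhibitor genes that fell (8) numbered 5 without tumour replicate 2. Plod3 and Itgb5 no longer passed with upper-quartile scaling. Itga7 no longer passed without control 2 or tumour replicate 1 or 2 or with upper-quartile scaling. Itgb1 no longer passed without tumour replicate 1 or 2 or with upper-quartile scaling, and over all alternatives the edgeR, limma or DESeq2 adjusted p of these genes was 0.000476 to 0.184.

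**Figure D4:**
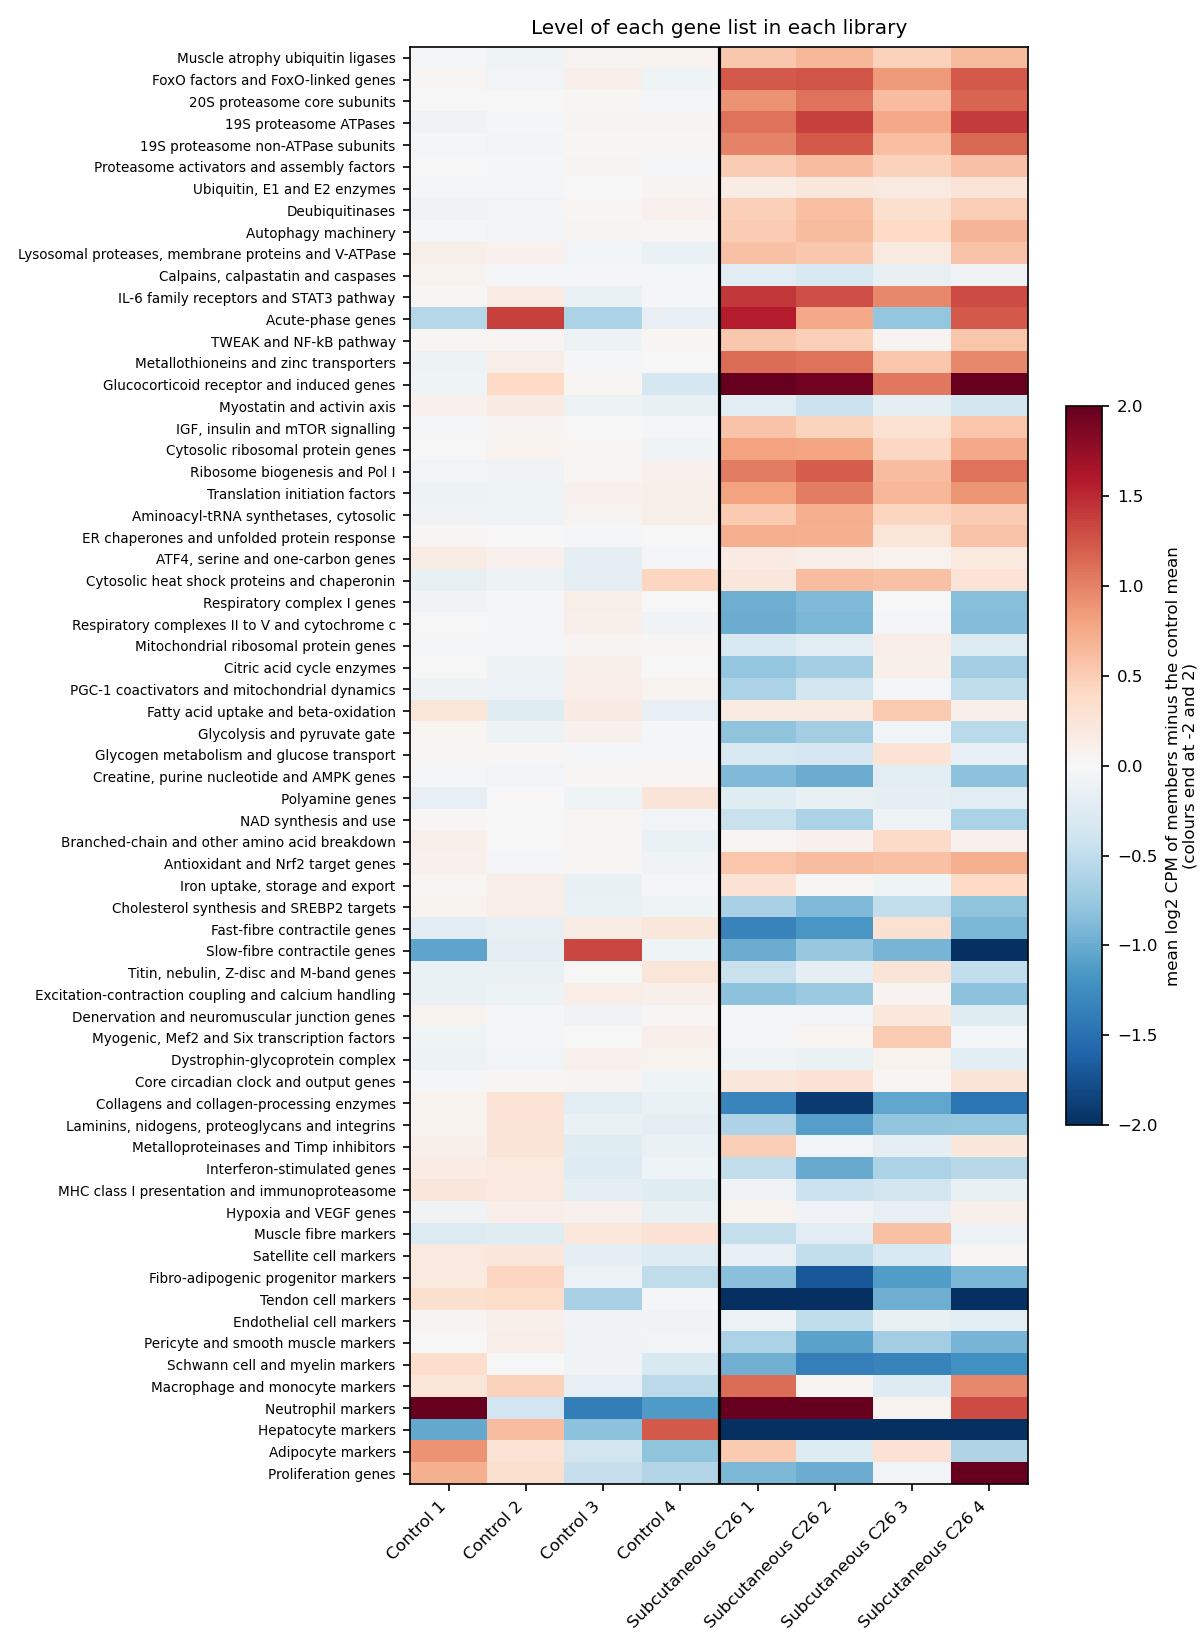
Mean log2 level of the gene lists with at least 5 measured members in each of the 8 libraries, relative to the mean of the controls. Red marks a higher and blue a lower level, with the colours ending at a difference of 2, and FoxO-linked and collagen lists have 1 colour in all 4 tumour libraries, whereas complex I and fast-fibre lists are blue in tumour replicates 1, 2 and 4 and near white or red in tumour replicate 3.

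Markers of several cell types of the muscle interstitium were lower. In bulk RNA, fewer cells of a type and less RNA per cell cannot be told apart. Of 10 markers of fibro-adipogenic progenitors, the matrix-making cells between fibres, 7 fell and 1 rose (Ly6a); their summed level was 1423 to 2867 CPM in control and 725 to 1353 CPM in subcutaneous C26. Of 9 tendon cell markers 7 fell, with sums of 127 to 255 CPM in control and 25.6 to 105.4 CPM in subcutaneous C26, and of 9 measured of 10 listed Schwann cell and myelin markers 7 fell, with sums of 59.9 to 97.7 CPM in control and 31.8 to 51.9 CPM in subcutaneous C26. Thbs4, a tendon matrix gene, was at 73.4, 85.1, 57.5 and 98.8 CPM in control and 33.4, 15.5, 35.0 and 24.0 CPM in subcutaneous C26 (log2 difference -1.55 ± 0.34, edgeR adjusted p = 0.00206). Of 10 pericyte and smooth muscle markers 7 fell and 1 rose (Abcc9, the most abundant), and the sums overlapped (629 to 675 CPM in control and 597 to 643 CPM in subcutaneous C26). Kcnj8, a potassium channel gene of pericytes, was at 14.7, 14.3, 15.0 and 14.8 CPM in control and 3.503, 3.90, 4.93 and 5.18 CPM in subcutaneous C26 (log2 difference -1.75 ± 0.19, edgeR adjusted p = 2.98e-05). Of 13 endothelial markers 4 fell (Kdr, Cdh5, Egfl7 and Emcn) and 3 rose (Esam, Sox17 and Vwf). Kdr, the main receptor for vascular endothelial growth factor A, was at 51.8, 50.5, 52.2 and 67.2 CPM in control and 14.7, 15.6, 17.6 and 16.4 CPM in subcutaneous C26 (log2 difference -1.79 ± 0.17, edgeR adjusted p = 1.48e-05), and none of the genes in this paragraph given per library had overlapping groups. Endothelial markers (23.1%) rose at a share within 10 percentage points of that of all genes (27%). Endothelial markers (30.8%) fell at a share within 10 percentage points of that of all genes (23.1%). Progenitor markers that fell (7) numbered 4 without tumour replicate 2. Tendon cell markers that fell (7) numbered 4 without tumour replicate 2 or tumour replicate 4. Endothelial markers that rose (3) numbered 0 without control 1 or tumour replicate 1 or with upper-quartile scaling and 1 without control 4 or tumour replicate 4. Ly6a no longer passed without control 3 or 4 or tumour replicate 1 or 4 or with upper-quartile scaling. Abcc9 no longer passed without control 1, 2 or 3 or any 1 tumour library or any 1 sham library or with upper-quartile scaling or with RLE size factors. Emcn no longer passed without control 2, 3 or 4 or tumour replicate 2 or 3 or sham replicate 1 or 3. Esam no longer passed without control 1 or tumour replicate 1 or 4 or with upper-quartile scaling. Sox17 no longer passed without control 1 or 4 or tumour replicate 1 or with upper-quartile scaling. Vwf no longer passed without any 1 control or tumour replicate 1 or 4 or with upper-quartile scaling or by limma on the deposited log2 values, and over all alternatives the edgeR, limma or DESeq2 adjusted p of these genes was 0.00483 to 0.541.

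Muscle fibre markers were abundant in all 8 libraries, with sums of 139574 to 242275 CPM in control and 138133 to 300427 CPM in subcutaneous C26; of 12 genes 2 rose (Des and Ttn), 1 fell (Mb) and 9 did not pass. Mb, which encodes the oxygen store myoglobin, was at 1911, 2165, 2694 and 1592 CPM in control and 158, 190.3, 1587 and 298 CPM in subcutaneous C26 (log2 difference -1.90 ± 0.56, edgeR adjusted p = 0.0116), with replicate 3 level with the lowest control. Des, the intermediate filament desmin, was at 2464, 2452, 3434 and 3387 CPM in control and 6203, 7495, 5164 and 5779 CPM in subcutaneous C26 (log2 difference 1.07 ± 0.23, edgeR adjusted p = 0.00174). Satellite cell markers rose in 2 (Cdh15 and Sdc4) and fell in 2 (Calcr and Heyl) of 9 cases. Their sums were 70.1 to 84.6 CPM in control and 110.8 to 208.2 CPM in subcutaneous C26. Their mean log2 levels overlapped, at -0.25 to 0.23 in control and -0.49 to 0.03 in subcutaneous C26. Of 13 macrophage and monocyte markers 3 rose (Cd163, Itgam and Lyve1), none fell and 10 did not pass, with sums of 161 to 344 CPM in control and 179 to 500.01 CPM in subcutaneous C26. Cd163, a haemoglobin scavenger receptor of resident macrophages, was at 17.2, 26.3, 13.8 and 10.5 CPM in control and 63.2, 29.4, 16.5 and 65.5 CPM in subcutaneous C26 (log2 difference 1.36 ± 0.40, edgeR adjusted p = 0.0111), and replicate 3 lay within the control range. Of 11 neutrophil markers Lcn2 alone passed, with sums of 2.29 to 52.3 CPM in control and 24.7 to 446 CPM in subcutaneous C26. These sums include Lcn2, whose values per library are given above. The mean log2 level of the neutrophil list was 2.89, -0.39, -1.38 and -1.13 in controls 1 to 4. It was 3.03, 2.74, 0.06 and 1.31 in tumour replicates 1 to 4. Slc4a1, the anion exchanger of red cells, was at 6.20, 0.444, 0.0363 and 0.169 CPM in control and 2.45, 0.571, 2.112 and 70.2 CPM in subcutaneous C26 (log2 difference 3.41 ± 1.46, edgeR adjusted p = 0.0633), and Mki67, of dividing cells, was at 7.99, 2.04, 0.908 and 0.779 CPM in control and 0.987, 0.698, 2.07 and 52.3 CPM in subcutaneous C26 (log2 difference 2.24 ± 1.26, edgeR adjusted p = 0.15); neither passed, and each was highest in tumour replicate 4 and, among controls, in control 1. Without tumour replicate 4 the log2 difference was -0.09 for Slc4a1 and -1.30 for Mki67. Slc4a1 passed by DESeq2 (adjusted p = 0.0295) and without control 1, tumour replicate 2 or tumour replicate 3 (adjusted p from 0.0123 to 0.959 over all alternatives). Of 1 measured of 10 listed lymphocyte markers none passed. Of 2 measured of 9 listed epithelial and colon carcinoma markers 1 fell (Krt19) and none rose. Satellite cell markers (22.2%) and macrophage markers (23.1%) rose at a share within 10 percentage points of that of all genes (27%). Satellite cell markers (22.2%) fell at a share within 10 percentage points of that of all genes (23.1%). Muscle fibre markers that fell (1) numbered 3 without tumour replicate 3. Macrophage markers that rose (3) numbered 1 without control 3, control 4, tumour replicate 1 or tumour replicate 4 or with upper-quartile scaling. Ttn no longer passed without control 1, 2 or 3 or tumour replicate 2 or 4 or with upper-quartile scaling or in the fit of the 8 libraries alone. Itgam no longer passed without control 3 or 4 or tumour replicate 1 or 4 or with upper-quartile scaling. Lyve1 no longer passed without control 1, 3 or 4 or tumour replicate 1 or 4 or sham replicate 2 or splenic replicate 4 or with upper-quartile scaling or in the fit of the 8 libraries alone, and over all alternatives the edgeR, limma or DESeq2 adjusted p of these genes was 0.00372 to 0.187.

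Interferon-stimulated genes fell in 13 of 30 measured of 33 listed cases, rose in 1 (Ifitm3) and did not pass in 16 (median -0.76). Among all genes 23.1% were lower and 27% higher. Ifit2, an antiviral effector gene, was at 4.89, 6.25, 4.39 and 3.73 CPM in control and 1.47, 0.730, 0.828 and 0.926 CPM in subcutaneous C26 (log2 difference -2.28 ± 0.31, edgeR adjusted p = 0.000103), with all tumour libraries below all controls. Ifitm3, a membrane protein that blocks virus entry, was at 29.9, 28.7, 20.8 and 19.9 CPM in control and 48.0, 28.3, 28.5 and 40.0 CPM in subcutaneous C26 (log2 difference 0.54 ± 0.20, edgeR adjusted p = 0.0326), with overlapping groups. Ifitm3 no longer passed without control 3 or 4 or tumour replicate 1 or 4 or with upper-quartile scaling or in the fit of the 8 libraries alone, and over all alternatives the edgeR, limma or DESeq2 adjusted p of this gene was 0.0148 to 0.252.

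The lowest genes of the comparison were liver-typical transcripts that were present in the controls. Alb, which encodes the plasma protein albumin, was at 16.5, 67.7, 24.6 and 127 CPM in control and 0.637, 0.889, 0.663 and 0.370 CPM in subcutaneous C26 (log2 difference -6.51 ± 1.75, edgeR adjusted p = 0.00736). Ttr, the thyroid hormone carrier of plasma, was at 1.79, 7.70, 3.01 and 16.7 CPM in control and 0.0318, 0.0317, 0 and 0.0370 CPM in subcutaneous C26 (log2 difference -7.91 ± 1.81, edgeR adjusted p = 0.00281). For both genes the controls spread over a wide range, with controls 4 and 2 highest, and all tumour libraries were below all controls. Cyp2c29 and Cyp2d9, drug-metabolising enzymes of families with similar members, were at 0 in all 4 tumour libraries, so against 3 counts over the group they were at least 189-fold and at least 82.8-fold lower. Cps1, the first enzyme of the urea cycle, had 478 counts over the controls and 2 over the tumour libraries, a ratio of 209.9 (95% counting interval 57.8 to 1738). Slco1b2, Cyp3a11, Uox and Ces3a, the remaining genes of the 8 lowest, had ratios between 159.8 and 245. Of 11 measured of 12 listed hepatocyte markers 9 fell and 1 rose (Cyp2e1), while 23.1% of all genes were lower and 27% higher. The number that fell was 3 without controls 2 and 4. Alb, Ces3a and Cyp3a11 were among the liver-typical genes that no longer passed without these controls (edgeR adjusted p = 0.0539, 0.0536 and 0.125). The sum of the list was 146 to 391 CPM in control and 207 to 419 CPM in subcutaneous C26. Without Cyp2e1 and Trf, which were left out after their values were seen, it was 31.1, 144, 45.6 and 237 CPM in controls 1 to 4 and 2.77, 3.02, 1.04 and 2.00 CPM in tumour replicates 1 to 4. Whether these transcripts were made in muscle was not tested. Cyp3a11 no longer passed without tumour replicate 2 or 4. Cyp2e1 no longer passed without any 1 control or tumour replicate 1, 2 or 4 or sham replicate 3 or 4 or with upper-quartile scaling, and over all alternatives the edgeR, limma or DESeq2 adjusted p of these genes was 0.000818 to 0.165.

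**Figure D5:**
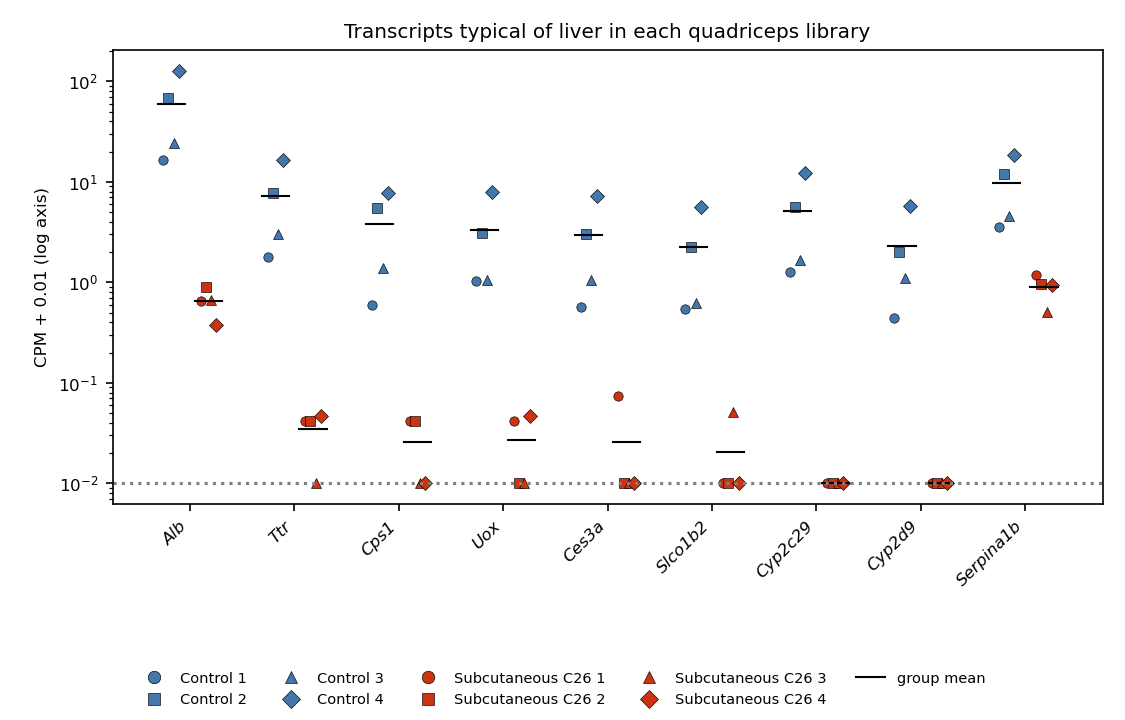
Levels of liver-typical transcripts in each of the 8 libraries, in CPM plus 0.01 on a logarithmic axis, with 1 point per library, a bar at each group mean and a dotted line where a library has 0 counts. Controls 2 and 4 lie highest, and the tumour libraries lie at or near 0.

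Among genes that varied less than 2-fold between controls, the lowest were Akap5, Siglech, Kcng4, Nrep, Dbp, Gdf10, Tet1 and Stmn4, chosen after values were seen. Kcng4, a modifier subunit of voltage-gated potassium channels, was at 79.8, 112, 103 and 129.6 CPM in control and 1.11, 0.794, 18.9 and 1.41 CPM in subcutaneous C26 (log2 difference -4.28 ± 0.91, edgeR adjusted p = 0.0018). Nrep, a neuronal regeneration gene, was at 98.3, 130.0, 120.0 and 153 CPM in control and 1.40, 1.17, 21.99 and 1.85 CPM in subcutaneous C26 (log2 difference -4.26 ± 0.99, edgeR adjusted p = 0.00304). Akap5, an anchor for protein kinase A, was at 2.05, 2.04, 2.51 and 2.202 CPM in control and 0.0637, 0.0952, 0.0828 and 0.0370 CPM in subcutaneous C26 (log2 difference -4.89 ± 0.46, edgeR adjusted p = 1.13e-05). For Kcng4 and Nrep tumour replicate 3 stood far above the other tumour libraries and below every control, whereas for Akap5 all tumour libraries were close to each other.

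The effect of the subcutaneous tumour was set against that of the splenic tumour, each relative to its own tumour-free group, by a test of the difference of the 2 effects. No gene passed by edgeR (0 of 13320, 0%), where 851 genes had an unadjusted p under 0.05, and none passed by limma on the deposited log2 values, whereas DESeq2 called 86. Leaving out 1 library at a time gave 0 to 66 calls, the most without splenic replicate 2. For Kcnj8 the difference of effects was -1.65 ± 0.26 (subcutaneous minus splenic, edgeR adjusted p = 0.067), a gene chosen here after its value was seen. For Fbxo32 it was -0.01 ± 0.38 (adjusted p = 0.999) and for Mt2 -1.30 ± 1.03 (adjusted p = 0.921). An adjusted p above the threshold does not show that the effects were alike.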

How the data were processed

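Quadriceps RNA was sequenced as 75-base paired ends on a HiSeq, and all samples were extracted and sequenced together, per the labels' protocols. The deposited counts of reads per gene came from STAR alignment and featureCounts, per the labels, and the submitters' processing notes name FastQC, STAR, edgeR and mm10. For versions, annotation and strandedness, nothing is given in the sources used here. The table held 13320 genes, each above 0.5 CPM in at least 4 libraries, and 4013 lines without a gene symbol, which were dropped. A second deposited table held log2 values, which matched log2 CPM after 1 constant per gene and library (residual SD 0.00025 over 6098 genes), and it was used only for an alternative test.

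Counts of all 16 libraries were fitted in R 4.3.3 with edgeR 4.0.16 (filterByExpr, which removed 0 genes, TMM, robust quasi-likelihood test, 1 mean per group), with Benjamini-Hochberg adjustment over all genes and a threshold of 0.05. The SE of a log2 difference was its size divided by the square root of F. The difference of the 2 tumour effects was tested in the same fit. The alternatives were other scalings and filters, removal of the 10 most abundant genes, DESeq2 1.42.0, limma 3.58.1 on the deposited log2 values, a fit of the 8 libraries alone, and leaving out libraries. The scripts were tested on simulated data.

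Total counts of 27.6 to 33.5 M per library set the precision. For genes at 0 in a group, 3 counts over the group gave the bound, and 95% intervals of count ratios cover counting error only. No library repeated another (lowest chi-square per degree of freedom 25.1). No sample column was left unused.

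The members and the 69 gene lists (54 pathway and 15 cell type lists) were chosen with earlier results of these data known. Genes were named by a rule: the 8 highest and 8 lowest log2 differences among genes that passed, had a mean of at least 1 CPM and had groups that did not overlap, a fixed set of muscle wasting genes, the member of each list with the smallest p in each direction, and up to 4 genes each way from the difference of effects. Genes named to spell out a small count, and a few others of large size, were chosen after their values were seen. Gene positions are from GENCODE M21 (mm10), matched by symbol for 12868 genes (96.6%), and promoter sequences are RefSeq windows of GRCm38.p6. Reads of genes with a near-identical copy (Mt1 with Mt2, Acot1 with Acot2, and the Saa, Serpina, Cyp and Ces families) and of overlapping antisense genes may not be told apart by the counting. A few genes are not reported here, so not every gene that the naming rule picks, and not every member of a small count, is named.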

Additional observations from a re-analysis of the deposited data

Results flagged for a closer look

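In 196 groups of 4 libraries, each holding 1 gene or gene list in 1 group, the gap between the most extreme library and its nearest neighbour was set against Dixon's 95% limit, which chance passes in about 5% of groups. A library stood apart in 28 of them. In 20 of these the library was tumour replicate 3, which lay toward the controls each time. It was the lowest tumour library for Ampd3 (20.6 against 251 to 287 CPM), Foxo1 (156 against 233 to 237 CPM) and Glul (1293 against 2214 to 2384 CPM). Its level was also low for Il6ra (52.8 against 142 to 151 CPM), Mt1 (234 against 1389.6 to 1492 CPM) and Mt2 (190.3 against 988 to 1085 CPM). So it was for Sik1 (57.8 against 269 to 295 CPM). It was the highest tumour library for Acaa2 (153 against 42.6 to 45.7 CPM), Cycs (219.7 against 90.8 to 103 CPM) and Dhcr7 (3.48 against 1.52 to 1.75 CPM). It also exceeded its group for Fundc1 (21.6 against 12.4 to 13.2 CPM), Kcng4 (18.9 against 0.794 to 1.41 CPM) and Mb (1587 against 158 to 298 CPM). Higher values again were found for Mdh1 (424 against 174 to 187 CPM), Mef2c (392 against 72.9 to 74.1 CPM) and Myl1 (5639 against 1098 to 1582 CPM). Above its group it lay for Ndufc2 (71.1 against 38.3 to 41.8 CPM), Nmrk2 (49.8 against 1.90 to 2.83 CPM) and Nrep (21.99 against 1.17 to 1.85 CPM). The mean level of the complex I genes was -0.0102 in tumour replicate 3 against -0.97 to -0.86 in the other tumour libraries, in log2 CPM over the control mean.

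In the remaining groups another library stood apart. Casq2, slow-fibre calsequestrin, was at 35.6 CPM in control 3, above the 19.4 to 21.2 CPM of the rest of its group. Dnm1l, the mitochondrial division gene, was at 112 CPM in control 4, above the 98.8 to 100.6 CPM of the rest of its group. Kdr, the growth factor receptor gene, was at 67.2 CPM in control 4, above the 50.5 to 52.2 CPM of the rest of its group. Mki67, a gene of dividing cells, was at 52.3 CPM in tumour replicate 4, above the 0.698 to 2.07 CPM of the rest of its group. Pdk4, the pyruvate dehydrogenase kinase gene, was at 225 CPM in control 2, below the 1192 to 1294 CPM of the rest of its group. Slc4a1, the red cell anion exchanger gene, was at 6.20 CPM in control 1, above the 0.0363 to 0.444 CPM of the rest of its group. The same gene was at 70.2 CPM in tumour replicate 4, above the 0.571 to 2.45 CPM of the rest of its group. Tfrc, the transferrin receptor gene, was at 28.3 CPM in tumour replicate 4, above the 15.7 to 17.8 CPM of the rest of its group. The difference between the effects of the subcutaneous and the splenic tumour was tested for every gene, and no gene passed by edgeR (851 at an unadjusted p under 0.05, and 86 by DESeq2).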

How the results depend on the processing

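Leaving out 1 of the 8 libraries at a time gave 2747 to 3813 higher genes and 2314 to 3734 lower genes, both lowest without tumour replicate 2 and highest without tumour replicate 3. Leaving out 1 sham or splenic library gave 3368 to 3763 higher and 2825 to 3734 lower genes. Upper-quartile scaling gave 2412 higher and 4509 lower genes, of which 5484 calls were shared with the 6665 under TMM. Leaving out control 1 and tumour replicate 4 together gave 2478 higher and 1968 lower genes and 1 gene for the difference of tumour effects, and leaving out controls 2 and 4 gave 2446 and 1728, choices made after seeing the data; fewer samples remained in both. The difference of tumour effects gave 86 genes by DESeq2, 0 to 4 when 1 of the 8 libraries was left out (4 without control 1 or tumour replicate 3) and 0 to 66 when 1 of the other 8 was left out (66 without splenic replicate 2), and the cause was not tested.

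Of 6383 values of the 246 named genes under alternatives, 5930 kept direction and side of the threshold, 424 no longer passed, 22 passed only under the alternative and 7 changed sign, all for genes that did not pass. Of the calls no longer made, 57 were lost without control 1 and tumour replicate 4, 63 without controls 2 and 4, and 11 in the fit of the 8 libraries alone. The changes of sign were in Ckm (0.00658 without control 4 and 0.00925 without tumour replicate 1, with -0.51 to 0.00925 when 1 library was left out), Mki67 (-1.30 without tumour replicate 4, -0.049 without control 1 and tumour replicate 4, and -1.30 to 3.47 when 1 library was left out), Myh4 (-0.0141 with upper-quartile scaling, -0.22 without tumour replicate 3, and -0.22 to 0.44 when 1 library was left out) and Slc4a1 (-0.085 without tumour replicate 4, with -0.085 to 6.35 when 1 library was left out), and the cause was not tested. Of 3588 list counts under alternatives, 3216 lay within 1.5 times the count given and 372 did not. No filter on low counts changed nothing, since filterByExpr had removed 0 genes. No paired analysis was possible because the replicate numbers follow accession order and do not pair the samples. Genes with few counts per library, such as the liver-typical transcripts in tumour libraries, have wide counting intervals.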

Other observations

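Genes of mitochondrial dynamics and of coactivators and receptors that drive mitochondrial and oxidative programmes moved in both directions. Of 21 such genes 8 fell and 3 rose (Pprc1, Nrf1 and Gabpa), against 23.1% and 27% of all genes. Among the falls were all 3 oestrogen-related receptor genes, Esrra (-1.61 ± 0.32), Esrrb (-1.30 ± 0.22) and Esrrg (-1.52 ± 0.29). Pprc1, a coactivator of the same family as Ppargc1a, was at 22.1, 24.2, 26.3 and 27.3 CPM in control and 86.3, 96.7, 42.3 and 76.6 CPM in subcutaneous C26 (log2 difference 1.59 ± 0.22, edgeR adjusted p = 0.000134). Dnm1l, which divides mitochondria, was at 100.4, 100.6, 98.8 and 112 CPM in control and 52.9, 58.5, 75.8 and 54.8 CPM in subcutaneous C26 (log2 difference -0.77 ± 0.11, edgeR adjusted p = 0.000179). The groups did not overlap for Pprc1 or Dnm1l. Of 20 measured of 21 listed genes of NAD synthesis and use 4 rose and 5 fell. Nmrk2, the muscle nicotinamide riboside kinase, was at 337, 283, 333 and 581 CPM in control and 2.83, 1.90, 49.8 and 2.148 CPM in subcutaneous C26 (log2 difference -4.77 ± 1.01, edgeR adjusted p = 0.0018). Tumour replicate 3 was the highest tumour library for Nmrk2. Sirt1, a nuclear NAD-dependent deacetylase, rose by 1.30 ± 0.19, and Sirt3, its mitochondrial relative, fell, with a log2 difference of -1.79 ± 0.29. NAD genes (20%) rose at a share within 10 percentage points of that of all genes (27%). NAD genes (25%) fell at a share within 10 percentage points of that of all genes (23.1%). NAD genes that rose (4) numbered 2 with upper-quartile scaling. NAD genes that fell (5) numbered 8 with upper-quartile scaling. Gabpa no longer passed without control 2 or tumour replicate 2 or with upper-quartile scaling, and over all alternatives the edgeR, limma or DESeq2 adjusted p of this gene was 0.00373 to 0.461.

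Of 23 measured of 24 listed hypoxia and vascular growth factor genes 5 rose (Arnt, Bnip3, Egln3, Ddit4 and Vhl) and 8 fell. Ddit4, a stress-induced inhibitor of mTOR, was at 4.33, 17.1, 10.5 and 4.61 CPM in control and 201, 152, 20.2 and 311 CPM in subcutaneous C26 (log2 difference 4.23 ± 0.88, edgeR adjusted p = 0.00159). Vegfc, a growth factor of lymphatic vessels, was at 2.41, 2.55, 2.143 and 1.83 CPM in control and 0.446, 0.476, 0.331 and 0.407 CPM in subcutaneous C26 (log2 difference -2.41 ± 0.25, edgeR adjusted p = 2.79e-05). Genes of glycogen metabolism and glucose transport rose in 7 and fell in 3 (Ppp1r3b, Pgm2 and Slc2a12) of 27 cases, and genes of amino acid breakdown rose in 9 and fell in 2 (Ppm1k and Pcca) of 29. Ugp2, which makes the glucose donor for glycogen, was at 548, 524, 667 and 649 CPM in control and 2562, 3294, 1254 and 3471 CPM in subcutaneous C26 (log2 difference 2.147 ± 0.32, edgeR adjusted p = 0.000201), with the groups apart. Hypoxia and growth factor genes (21.7%), glycogen and glucose transport genes (25.9%) and amino acid breakdown genes (31%) rose at a share within 10 percentage points of that of all genes (27%). Hypoxia and growth factor genes that fell (8) numbered 5 without tumour replicate 1 or tumour replicate 2. Glycogen and glucose transport genes that rose (7) numbered 4 with upper-quartile scaling. Glycogen and glucose transport genes that fell (3) numbered 6 with upper-quartile scaling, 5 by DESeq2 or by limma on the deposited log2 values or in the fit of the 8 libraries alone and 9 without tumour replicate 3. Amino acid breakdown genes that fell (2) numbered 9 with upper-quartile scaling and 10 without tumour replicate 3. Vhl no longer passed without control 4 or tumour replicate 1, 2 or 4 or with upper-quartile scaling. Slc2a12 no longer passed without any 1 control or tumour replicate 1, 2 or 4. Pcca no longer passed without control 3 or tumour replicate 1 or 2 or in the fit of the 8 libraries alone, and over all alternatives the edgeR, limma or DESeq2 adjusted p of these genes was 0.000286 to 0.164.

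Among 26 measured of 28 listed muscle transcription factor genes 8 rose and 4 fell (Prox1, Mef2c, Maf and Srf). Mef2c, a factor of fibre growth and fibre type, was at 540.2, 583, 722 and 770.1 CPM in control and 72.9, 74.1, 392 and 72.9 CPM in subcutaneous C26 (log2 difference -2.10 ± 0.62, edgeR adjusted p = 0.0122). Nr4a3, an orphan nuclear receptor gene, was at 10.02, 7.31, 18.8 and 27.9 CPM in control and 90.1, 102, 309 and 152 CPM in subcutaneous C26 (log2 difference 3.35 ± 0.91, edgeR adjusted p = 0.00753). Of 22 measured of 23 listed genes of the dystrophin complex and membrane repair 4 rose (Dmd, Dag1, Dysf and Ano5) and 5 fell. Dmd, which encodes dystrophin, rose by 0.98 ± 0.20, and Utrn, its relative utrophin, fell, with a log2 difference of -0.70 ± 0.23. Of 9 adipocyte markers Cfd rose, Lep fell and 7 did not pass. Of 3 measured of 8 listed red blood cell markers Alas2 alone passed (2.07 ± 0.49), and of 7 measured of 10 listed proliferation genes Pcna alone passed (0.82 ± 0.19). Muscle transcription factor genes (30.8%) and dystrophin complex genes (18.2%) rose at a share within 10 percentage points of that of all genes (27%). Muscle transcription factor genes (15.4%) and dystrophin complex genes (22.7%) fell at a share within 10 percentage points of that of all genes (23.1%). Muscle transcription factor genes that rose (8) numbered 5 with upper-quartile scaling. Muscle transcription factor genes that fell (4) numbered 7 with upper-quartile scaling, 2 without control 3, control 4, tumour replicate 1, tumour replicate 2 or tumour replicate 4 and 8 without tumour replicate 3. Dystrophin complex genes that rose (4) numbered 2 with upper-quartile scaling. Dystrophin complex genes that fell (5) numbered 3 without control 1, control 3, control 4, tumour replicate 1 or tumour replicate 4, 2 without control 2 and 1 without tumour replicate 2. Maf no longer passed without control 3 or 4 or tumour replicate 1, 2 or 4. Srf no longer passed without control 3 or 4 or tumour replicate 1, 2 or 4 or sham replicate 1 or 3 or splenic replicate 2 or in the fit of the 8 libraries alone. Dag1 no longer passed with upper-quartile scaling. Ano5 no longer passed without control 1 or 2 or tumour replicate 2 or with upper-quartile scaling. Utrn no longer passed without tumour replicate 2. Cfd no longer passed without control 2, 3 or 4 or tumour replicate 1, 2 or 4 or sham replicate 3 or 4 or splenic replicate 1 or 2 or with upper-quartile scaling. Lep no longer passed without control 2 or tumour replicate 1, 2 or 4, and over all alternatives the edgeR, limma or DESeq2 adjusted p of these genes was 0.000316 to 0.216.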
